A study of Mus musculus with 3 samples.

Results

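The genes of DNA replication and mitosis were followed in CD4+ T cells that carry the label Th1, the interferon gamma-producing class of helper cells. The group held 46 named genes, named by symbol from the cell-cycle machinery, with no threshold on their values. All 46 had a row in each deposited table, out of 23337 gene symbols in all, and none had more than 1 row. Every library was from wild-type animals of strain C57/Bl6j at 7 weeks of age, with no treatment. The lymphoid group held 2 libraries, titled as spleen and labelled as spleen, lymph nodes and draining lymph nodes, and the tumour group held 1 library from B16-F10 tumours, a transplantable mouse melanoma line. The series is concerned with effects of the tumour environment on splicing and expression in these cells. The labels do not say how many animals gave each library or whether cells were pooled, so that p-values measure the spread between libraries, which may be technical.

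A T cell that divides first makes deoxynucleotides and loads the MCM helicase onto replication origins, then copies its DNA with polymerases held on the PCNA clamp, and then segregates the copies under control of cyclin B with CDK1, Aurora kinases and the anaphase-promoting complex. Genes of the first steps are classically controlled by E2F factors and peak at the start of S phase. Genes of mitosis are controlled through CCAAT boxes and an element called CHR (cell cycle genes homology region) and peak in G2 and mitosis. Resting T cells hold both sets low, and activation through the T cell receptor raises them.

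Levels are given as scaled FPKM, that is, the deposited values (taken as FPKM, fragments relative to transcript length and library depth) divided by a median-of-ratios factor per library (1.29 and 1.33 for the lymphoid libraries, 0.579 for the tumour library). Log2 differences are tumour minus lymphoid on log2(scaled FPKM + 1), which understates changes of low genes. The tumour library was shallow, with a depth estimated from the values as 3270000 fragments, against 11460000 and 15630000 for lymphoid libraries 1 and 2. It also carried a higher floor. Odorant and vomeronasal receptor genes, which T cells should not express, averaged 0.0112 and 0.0441 scaled FPKM in the lymphoid libraries and 0.259 in the tumour library (1390 genes, without the highest 2%). Tests used limma across the 9800 genes whose mean deposited value reached 1 FPKM, with 1 residual degree of freedom from the 2 lymphoid libraries. The tumour library is assumed to vary like them.

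Of the 46 genes, 23 passed this filter and were tested. Tyms, Cdca8, Cenpa and Lig1 were called higher in the tumour library at a limma adjusted p under 0.05, and Mcm5, Mcm6 and Prim1 were called lower. The 4 higher calls of 23 stand beside 12.7% of all tested genes called higher, and the 3 lower calls beside 9.17% called lower. Of the 23, 9 lay above both lymphoid libraries, 8 below both and 6 between them, where 41.3% and 42.6% of all tested genes lay above and below both. The median log2 difference of the 23 was 0.00, against -0.01 for all tested genes. The median member thus sat beside the median gene, and Tyms and Cdca8 sat far from it. In RNA from whole samples, fewer cells in cycle and less RNA per cell cannot be told apart.

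**Figure D1:**
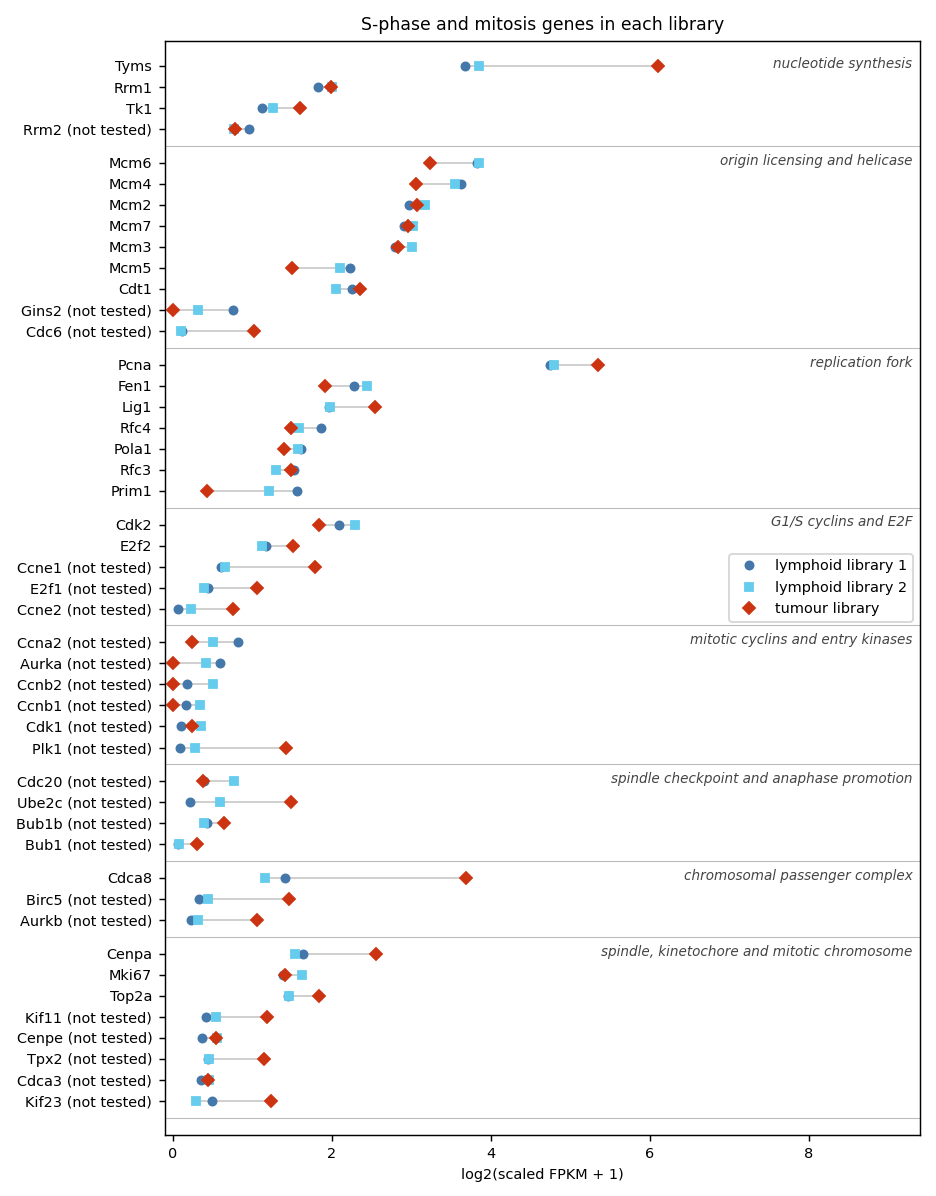
Level of each of the 46 genes in the 3 libraries, as log2(scaled FPKM + 1) on the horizontal axis, grouped by role, with each point a library and a grey line joining them. Tyms and Cdca8 stand far to the right in the tumour library, the MCM genes lie close together or lower, and of the 21 mitosis genes only Cdca8, Cenpa, Top2a and Mki67 were high enough to be tested.

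With the tumour library's estimated counting error added to the standard error, Tyms and Cdca8 were the only members called. That fit called 3.42% of genes higher and 0.206% lower, and 0 members were lower. At an unadjusted limma p under 0.05, 4 members were higher and 0 lower, beside 10.6% and 5.54% of all genes. On the log2(scaled FPKM + 1) scale, Tyms and Cdca8 were also the 2 members at least 2-fold higher than each lymphoid library, where 6.28% of all tested genes were. On that scale 0 tested members were 2-fold lower than each lymphoid library, beside 2.82% of all tested genes. The lymphoid libraries differed from each other by that much in 0.704% of genes.

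The promoters of 4 of the 7 called members are shown, namely the 2 largest rises, a called centromere gene and the called gene with the most E2F matches, because they differ in the motifs of the S-phase and mitosis programmes. RefSeq promoter windows (GRCm38.p6, 250 bases before to 50 after the annotated start) were found for 40 of the 46 genes. Capitals mark matches on either strand to the E2F, CHR or CCAAT motifs, and matches can overlap. The E2F motif was searched as the word TTCCCGC, the word TTGGCGC, the word TTCGCGC and the word TTGCCGC. The CHR motif was searched as TTTGAA and as TTTAAA. The windows lie at chr5:30073576-30073875 (minus strand) for Tyms, chr4:124936868-124937167 (minus strand) for Cdca8, chr5:30666636-30666935 (plus strand) for Cenpa and chr1:128359656-128359955 (minus strand) for Mcm6.
Tyms: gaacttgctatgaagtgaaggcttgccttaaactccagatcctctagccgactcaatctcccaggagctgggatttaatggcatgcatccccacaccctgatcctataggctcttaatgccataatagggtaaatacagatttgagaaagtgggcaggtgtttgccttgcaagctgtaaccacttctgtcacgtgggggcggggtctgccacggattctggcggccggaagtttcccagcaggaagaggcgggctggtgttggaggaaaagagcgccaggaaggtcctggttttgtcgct
Cdca8: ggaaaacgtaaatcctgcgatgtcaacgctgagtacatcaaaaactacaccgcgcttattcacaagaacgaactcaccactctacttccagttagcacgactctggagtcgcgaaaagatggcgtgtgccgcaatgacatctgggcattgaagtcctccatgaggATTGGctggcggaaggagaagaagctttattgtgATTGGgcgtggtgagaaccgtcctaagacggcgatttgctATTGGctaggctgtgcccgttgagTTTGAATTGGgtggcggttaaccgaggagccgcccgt
Cenpa: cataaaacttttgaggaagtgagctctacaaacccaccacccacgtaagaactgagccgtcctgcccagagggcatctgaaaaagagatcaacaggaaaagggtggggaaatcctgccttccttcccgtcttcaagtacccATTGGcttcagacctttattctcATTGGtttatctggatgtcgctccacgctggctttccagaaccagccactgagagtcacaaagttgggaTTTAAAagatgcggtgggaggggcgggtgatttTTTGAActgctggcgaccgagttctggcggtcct
Mcm6: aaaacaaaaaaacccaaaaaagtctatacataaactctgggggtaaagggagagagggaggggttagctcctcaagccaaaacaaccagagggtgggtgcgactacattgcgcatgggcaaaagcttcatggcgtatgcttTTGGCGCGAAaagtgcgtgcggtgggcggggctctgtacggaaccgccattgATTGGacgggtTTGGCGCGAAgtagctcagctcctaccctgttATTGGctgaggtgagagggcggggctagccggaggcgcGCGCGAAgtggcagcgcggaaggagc

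The Tyms window held 0 matches to any of the 3 motifs. Cdca8 held 1 CHR and 4 CCAAT matches, with the CHR word overlapping the last of the CCAAT matches. Cenpa held 2 CHR and 2 CCAAT matches. Lig1, whose window is not shown, also held 0 matches to any motif. Mcm6, which was called lower, held 5 E2F matches, of which 2 pairs overlap in the same stretch, and 2 CCAAT matches. E2F words were in 14 of 22 S-phase windows (63.6%) and 3 of 18 mitosis windows (16.7%), against 9.57% of all 32851 windows. CHR words were in 6 S-phase windows (27.3%) and 17 mitosis windows (94.4%), against 27.6% of all windows. CCAAT was in 59.1% of S-phase and 94.4% of mitosis windows, against 37.4% of all. These are matches of letters and not measured sites. Among S-phase genes with E2F words, Mcm5, Mcm6 and Prim1 were called lower (3, 5 and 1 matches), where 9.17% of all tested genes were. These calls were lost with counting error added (limma adjusted p = 0.379, 0.322 and 0.355). Pola1 (4 matches), Mcm3, Mcm7 and Cdk2 (3 each), and Cdt1 and Rfc3 (2 each) were not called. E2f2, Rfc4 and Rrm1 (1 match each) were not called either, and Cdc6 and Rrm2 (1 each) were not tested.

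Nucleotide synthesis genes held the largest change in level. Tyms encodes thymidylate synthase, which makes dTMP, the DNA-specific nucleotide (ENSMUSG00000025747.12, chromosome 5, 30058202 to 30073617, minus strand, GRCm38). It was at 11.7 and 13.4 scaled FPKM in the lymphoid libraries and at 67.6 in the tumour library. The tumour library stood apart from both others, which were close to each other. The ratio to the lymphoid mean of 12.6 ± 1.20 (SD, n = 2) was 5.38, and the log2 difference was 2.34 with SE 0.18 (limma adjusted p = 0.00126, and 0.00649 with counting error added). It rested on about 405.0 tumour fragments, where the lymphoid level would give about 75.3.

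A pseudogene copy complicates the value of Tyms. Tyms-ps, an annotated processed pseudogene of Tyms (chromosome 10, 87966847 to 87967761), had a row of its own and was at 1.41, 1.39 and 15.5 scaled FPKM. It also rose, by a log2 difference of 2.78 with SE 0.14 (limma adjusted p = 0.000553; 0.0114 with counting error added). Reads of a gene and its pseudogene can be assigned to either, so how the signal divides between them is uncertain. Tyms-ps was named after its values were seen.

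The other nucleotide synthesis genes did not follow Tyms past the threshold. Rrm1, the large subunit of ribonucleotide reductase, was at 2.56, 3.02 and 2.97, so that the tumour library fell between the lymphoid ones (log2 difference 0.07, limma adjusted p = 0.781). Tk1, the salvage enzyme thymidine kinase, was at 1.18, 1.40 and 2.03, above both (log2 difference 0.40, limma adjusted p = 0.135), on about 5.54 tumour fragments. Rrm2, the small reductase subunit and the one usually induced in S phase, was below the filter at 0.935, 0.705 and 0.725.

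Of the 6 MCM helicase genes 2 were called lower and 0 higher, beside 9.17% and 12.7% of all tested genes called. At an unadjusted limma p under 0.05, 3 were lower and 0 higher, beside 17.2% and 19.8% of all tested genes. Their summed level was 47.5, 49.6 and 37.9 scaled FPKM. Mcm6 was at 13.1 and 13.5 scaled FPKM in the lymphoid libraries and at 8.44 in the tumour library (ENSMUSG00000026355.11, chromosome 1, 128331590 to 128359664, minus strand). The log2 difference was -0.60 with SE 0.16 (limma adjusted p = 0.0494), on about 46.6 tumour fragments where the lymphoid level would give 73.4. Mcm5 was at 3.70, 3.31 and 1.82 (chromosome 8, 75109569 to 75128439, plus strand), with a log2 difference of -0.68 and SE 0.15 (limma adjusted p = 0.0322). Mcm4 was at 11.3, 10.7 and 7.36, also below both lymphoid libraries, but was not called (-0.52, limma adjusted p = 0.0697). The calls of Mcm5 and Mcm6 ended with counting error added (limma adjusted p = 0.379 and 0.322).

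Mcm2, Mcm3 and Mcm7 stayed within the lymphoid range. Mcm2 was at 6.84, 8.02 and 7.39, Mcm3 at 5.92, 7.05 and 6.14, and Mcm7 at 6.49, 7.10 and 6.79. They were not called (limma adjusted p = 0.989, 0.817 and 0.998). The MCM proteins work as a ring that holds all of these subunits.

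Among the loaders, Cdt1, which brings the helicase to origins, was at 3.78, 3.13 and 4.09 and was not called (0.20, limma adjusted p = 0.433). Cdc6, its partner, was below the filter at 0.0875, 0.0719 and 1.02, on about 4.96 tumour fragments. Gins2, a subunit of the active helicase, was at 0.695 and 0.248 and is listed at 0 in the tumour library, where the lymphoid level would give about 3.48 fragments. A listed 0 need not mean absence, since Ndufs5 and Rpl30, genes that nearly every cell uses, were also under 1 estimated tumour fragment.

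Replication-fork genes moved in both directions. Pcna, the sliding clamp and the second most abundant member in the tumour library, was at 25.7, 26.7 and 39.8. It lay above both lymphoid libraries and missed the threshold (0.58 with SE 0.17, limma adjusted p = 0.0684). Lig1, which seals Okazaki fragments (ENSMUSG00000056394.17, chromosome 7, 13277283 to 13311433, plus strand), was at 2.91, 2.94 and 4.82. Its log2 difference was 0.57 with SE 0.14 (limma adjusted p = 0.0432), and the call was lost when counting error was added (limma adjusted p = 0.379). Zswim9 on the opposite strand overlaps 1439 bases of Lig1.

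Prim1, the catalytic subunit of primase, had the largest fall of the tested members. It was at 1.95 and 1.32 scaled FPKM in the lymphoid libraries and 0.351 in the tumour library (ENSMUSG00000025395.14, chromosome 10, 128015168 to 128030037, plus strand), a log2 difference of -0.95 with SE 0.20 (limma adjusted p = 0.0283). That value rested on about 1.05 tumour fragments, where the lymphoid level would give 4.90, and the call ended with counting error added (adjusted p = 0.355). Fen1, the flap endonuclease, was at 3.84, 4.43 and 2.76 and was not called (-0.45, limma adjusted p = 0.0985). Pola1, the polymerase that extends Prim1's primers, was at 2.06, 1.98 and 1.63 (-0.20, limma adjusted p = 0.391). The clamp loader genes Rfc3 and Rfc4 had log2 differences of 0.08 and -0.23 and were not called.

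The G1/S regulators were mostly low. Cdk2, the kinase that cyclin E activates, was at 3.25, 3.89 and 2.59 (-0.35, limma adjusted p = 0.187), and E2f2 was at 1.25, 1.17 and 1.85 (0.36, limma adjusted p = 0.156). These were the 2 tested members of the group of 5, and 0 of them were called (0 also at an unadjusted p under 0.05). Cyclin E1, Ccne1, was below the filter at 0.524, 0.569 and 2.44, the highest tumour level of any untested member, on about 9.24 fragments. Ccne2 was at 0.0443, 0.172 and 0.689, and E2f1 at 0.357, 0.310 and 1.08.

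**Figure D2:**
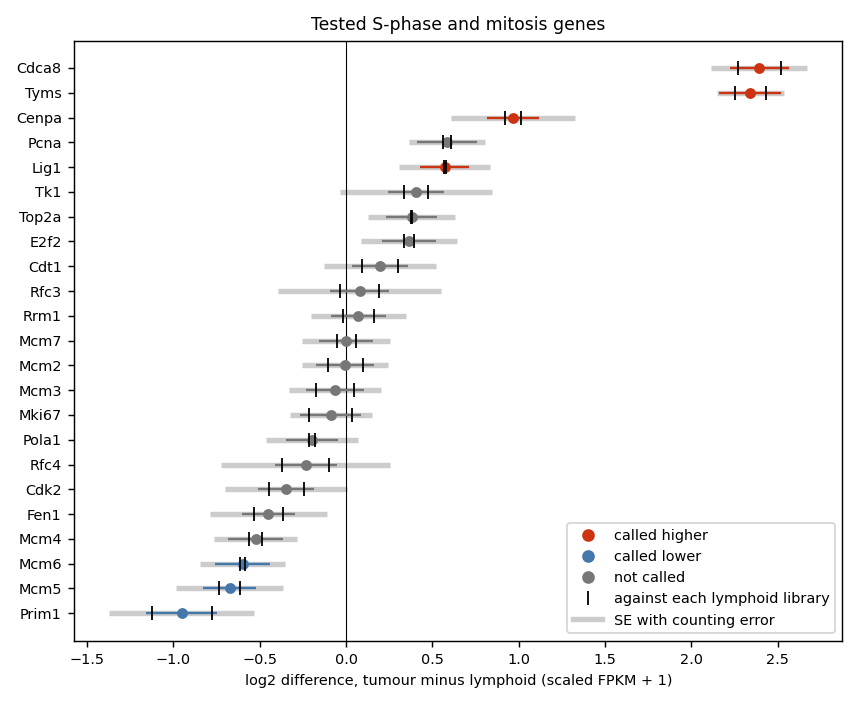
Log2 difference (tumour minus lymphoid, scaled FPKM + 1) of the 23 tested genes, with the limma SE as a thin bar, the SE with counting error as a thick grey bar and black ticks for the difference against each lymphoid library. The points of Cdca8 and Tyms lie at 2.39 and 2.34, and those of the other 21 genes between -0.95 and 0.97.

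Cdca8 showed the largest relative change of the tested members. It encodes borealin, a subunit of the chromosomal passenger complex that places Aurora B at centromeres (ENSMUSG00000028873.16, chromosome 4, 124918465 to 124939311, minus strand). It was at 1.67 and 1.24 scaled FPKM in the lymphoid libraries and at 11.9 in the tumour library. The ratio to the lymphoid mean of 1.45 ± 0.300 (SD, n = 2) was 8.15, and the log2 difference was 2.39 with SE 0.17 (limma adjusted p = 0.00107, and 0.0142 with counting error added). About 36.5 tumour fragments carried it, where the lymphoid level would give 4.48. 9930104L06Rik, on the opposite strand, overlaps 2264 bases of the Cdca8 model and starts inside the promoter window shown, and it was at 1.23, 1.66 and 3.90. Whether the counting used strand is not given in the sources used here, so reads of overlapping genes such as these, and Lig1 with Zswim9, may not be told apart.

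Of the partners of borealin, Aurkb and Birc5 were too low to test. Aurkb, the kinase of the complex, was at 0.175, 0.247 and 1.08, and Birc5, which encodes survivin, at 0.254, 0.364 and 1.76. Both lay above the lymphoid libraries, on about 4.0 and 3.15 tumour fragments. In these per-length values Cdca8 was above Aurkb and Birc5 in every library. Incenp, which encodes a further subunit and was in the list of other mitosis genes, was at 2.99, 5.52 and 5.33. It was above Cdca8 in both lymphoid libraries and below it in the tumour library. Incenp was tested and not called (0.31, limma adjusted p = 0.495), with the tumour library between the lymphoid ones.

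Cenpa, the histone variant that marks centromeres (ENSMUSG00000029177.9, chromosome 5, 30666777 to 30674830, plus strand), was at 2.10, 1.90 and 4.87. Its log2 difference was 0.97 with SE 0.15 (limma adjusted p = 0.0107), on about 13.5 tumour fragments where 5.57 would match the lymphoid level. The call ended with counting error added (adjusted p = 0.277). Its mean was 2.69 FPKM, and of all tested genes with a mean of 1 to 3 FPKM 23.7% were called higher. Top2a, the topoisomerase that untangles chromosomes, was at 1.73, 1.74 and 2.56 and was not called (0.38, limma adjusted p = 0.13). Mki67, the common proliferation marker, was at 1.61, 2.09 and 1.67, with the tumour library between the lymphoid ones (-0.09, limma adjusted p = 0.753).

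The cyclins and kinases of mitotic entry had a mean below the filter, and 0 of the 6 were tested. Cdk1 was at 0.0704, 0.281 and 0.182 and the S/G2 cyclin gene Ccna2 at 0.764, 0.421 and 0.186. The cyclin B genes Ccnb1 (0.117 and 0.269) and Ccnb2 (0.135 and 0.416), and Aurka (0.503 and 0.331), were listed at 0 in the tumour library, where their lymphoid levels would give only 0.909, 0.799 and 1.5 fragments. Falls of these genes were therefore not detectable at this depth. Plk1, the polo-like kinase, was at 0.0616, 0.218 and 1.67 on about 6.98 tumour fragments.

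The 4 checkpoint and anaphase genes were also below the filter. Cdc20, an activator of the anaphase-promoting complex, was at 0.308, 0.709 and 0.298, while Ube2c, its ubiquitin-conjugating enzyme, was at 0.157, 0.512 and 1.81. The checkpoint genes Bub1 and Bub1b reached 0.238 and 0.564 in the tumour library, above both lymphoid libraries. Among the motor and spindle genes, Kif11, Kif23 and Tpx2 were at 1.27, 1.36 and 1.21 in the tumour library and lower in each lymphoid library, while Cenpe and Cdca3 lay between.

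Low genes in general tended to lie higher in the scaled tumour library, and the untested members are set beside them. Of the 23, 13 lay above both lymphoid libraries, 6 below both and 4 between, with at most 11.6 estimated tumour fragments each. Of 9781 untested protein-coding genes with any value, 73.3% lay above both lymphoid libraries and 9.73% below both. Of 6109 protein-coding genes with a mean of 0.1 to 1 FPKM, 88.1% lay above both lymphoid libraries and 8.97% below both. Both sets were taken by values that include the tumour library, so a gene can enter through its tumour value alone. That can raise the shares above both, whereas the members were named by symbol, so these shares are not an equal background for them. The tendency of low genes runs with the higher floor of the tumour library given above, and the part of that floor in these values was not tested. Summed over the 23 genes, the tumour library held about 92 fragments, where the lymphoid levels would give 42.

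**Figure D3:**
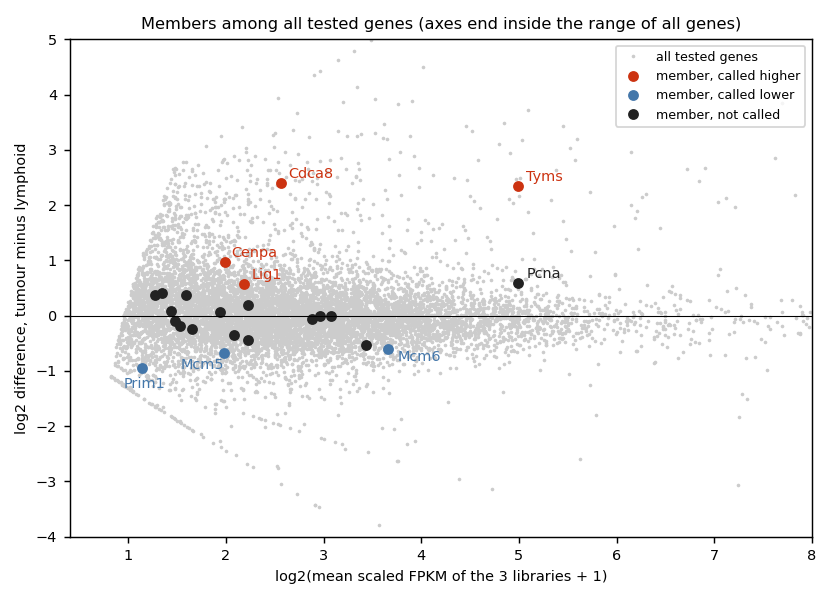
Log2 difference (vertical axis) against mean level (horizontal axis, log2 of mean scaled FPKM + 1) of the 9800 tested genes in grey, with the 23 tested members coloured by call. Most members lie inside the grey band around 0, Tyms and Cdca8 lie above it, and some genes outside the plotted axes are not shown.

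Ratios between members of a library need no scaling, and were chosen after the values were seen. Tyms stood at 0.455 and 0.503 of Pcna in the lymphoid libraries and at 1.70 times Pcna in the tumour library. Against the summed Mcm2 to Mcm7 values Tyms was at 0.247, 0.270 and 1.78, and against Rrm1 at 4.58, 4.45 and 22.7. In these per-length values Tyms was thus below Pcna in both lymphoid libraries and above it in the tumour library. Pcna to the summed MCM values was 0.542, 0.538 and 1.05.

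Within the helicase the ratios set apart the same 3 subunits, but they use the same values again and are no separate check. No counting error was computed for them, and Mcm5 rested on about 11.7 tumour fragments. Mcm6 to Mcm2 was 1.92, 1.68 and 1.14, Mcm5 to Mcm2 was 0.541, 0.413 and 0.246, and Mcm4 to Mcm2 was 1.66, 1.33 and 0.996. Mcm3 to Mcm2 (0.866, 0.879 and 0.831) and Mcm7 to Mcm2 (0.948, 0.885 and 0.919) moved little. Cdca8 to Top2a was 0.963, 0.712 and 4.63, and Cdca8 to Mki67 was 1.04, 0.594 and 7.11. With 1 tumour library these ratios have no replicate check in tumour.

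**Figure D4:**
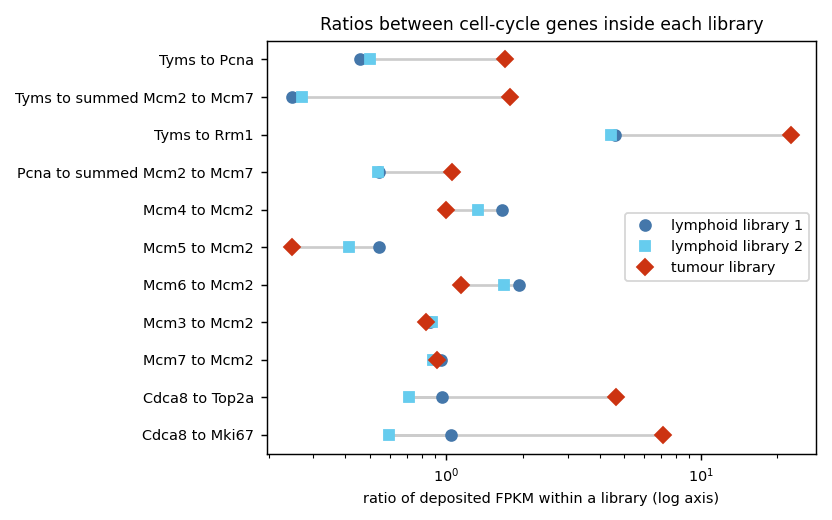
Ratios of deposited FPKM between members inside each library, on a log axis, with a point for each library. The ratios of Tyms and Cdca8 to other members lie to the right in the tumour library, those of Mcm4, Mcm5 and Mcm6 to Mcm2 lie to the left, and Mcm3 and Mcm7 to Mcm2 hardly differ between libraries.

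Other genes of the same pathways were taken from lists by role, and their counts stand beside 12.7% of all tested genes called higher and 9.17% lower (19.8% and 17.2% at an unadjusted limma p under 0.05). Of 24 other nucleotide synthesis genes tested, 0 were higher and 4 lower (0 higher and 9 lower at an unadjusted limma p under 0.05), with a median of -0.21. Dck, which salvages deoxycytidine, was at 4.19, 3.23 and 1.53 (-0.89, limma adjusted p = 0.0241), and Rrm2b, the reductase subunit used outside S phase, at 4.05, 3.30 and 1.83 (-0.72, limma adjusted p = 0.0354). Tyms was thus the nucleotide synthesis gene called higher among both sets. Of 38 other replication genes 3 were higher and 4 lower, counts near those shares. Of the 3 higher, 1 (Cdc7) had a mean of 1 to 3 FPKM, where 23.7% of all tested genes were called higher. Dbf4 and Cdc7, the subunits of the kinase that fires origins, both rose, from 2.93 and 2.85 to 7.73 for Dbf4 (1.17, limma adjusted p = 0.00535) and from 2.22 and 1.78 to 3.74 for Cdc7 (0.66, limma adjusted p = 0.0421). Topbp1, a scaffold of origin firing and checkpoint signalling, fell (-0.89, limma adjusted p = 0.0135), as did Pole4, a small subunit of polymerase epsilon (-0.84, limma adjusted p = 0.0167).

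Other mitosis genes had 9 higher and 2 lower calls of 41 tested, with a median of 0.31. Cks2, a CDK-binding protein, was at 2.21, 2.70 and 6.73 (1.17, limma adjusted p = 0.00795) and Ndc80, the outer kinetochore subunit, at 1.05, 1.59 and 3.59 (0.99, limma adjusted p = 0.0215). Dsn1, another kinetochore gene, was at 1.10, 1.26 and 0.230, on about 1.15 tumour fragments, and Ckap5, a microtubule polymerase, at 6.81, 6.28 and 3.34 (both called lower). Of the 9 higher calls, 6 were among 20 genes with a mean of 1 to 3 FPKM, a range in which 23.7% of all tested genes were called higher and 9.58% lower. The count of rises is therefore to be read against that share.

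Beside the same 12.7% and 9.17% of all tested genes, of 16 subunits of the anaphase-promoting complex and its partners 1 was higher (Anapc10, 1.08, limma adjusted p = 0.0101) and 1 lower (Cdc23, -0.61, limma adjusted p = 0.0424). Among 29 G1 cyclins and cell-cycle brakes 3 were higher and 5 lower. Anapc10 and these 3 higher genes had a mean of 1 to 3 FPKM, where 23.7% of all tested genes were called higher. Cdk6, a G1 kinase, was at 1.67, 1.43 and 3.61 (0.86, limma adjusted p = 0.0175), and Lin9, a subunit of the complex that binds CHR elements, at 1.98, 1.77 and 4.02 (0.81, limma adjusted p = 0.0188). Cdkn2d, an inhibitor of CDK4 and CDK6, was at 5.06, 5.26 and 1.72 (-1.18, limma adjusted p = 0.0052), and Ccng1, a p53 target, at 19.3, 14.8 and 9.07 (-0.83, limma adjusted p = 0.0429). With counting error added, 0 genes of these 5 lists were called, beside 3.42% of all genes called higher and 0.206% lower. At an unadjusted limma p under 0.05 in that fit, 8 of 41 other mitosis genes were higher and 2 lower. Of 24 other nucleotide synthesis genes 0 were higher and 2 lower, and of 38 other replication genes 1 and 2. Of the 16 anaphase-promoting complex genes 1 was higher and 0 lower, and of the 29 G1 cyclins and brakes 3 and 3. Of all genes, 10.6% were higher and 5.54% lower at that p.

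**Figure D5:**
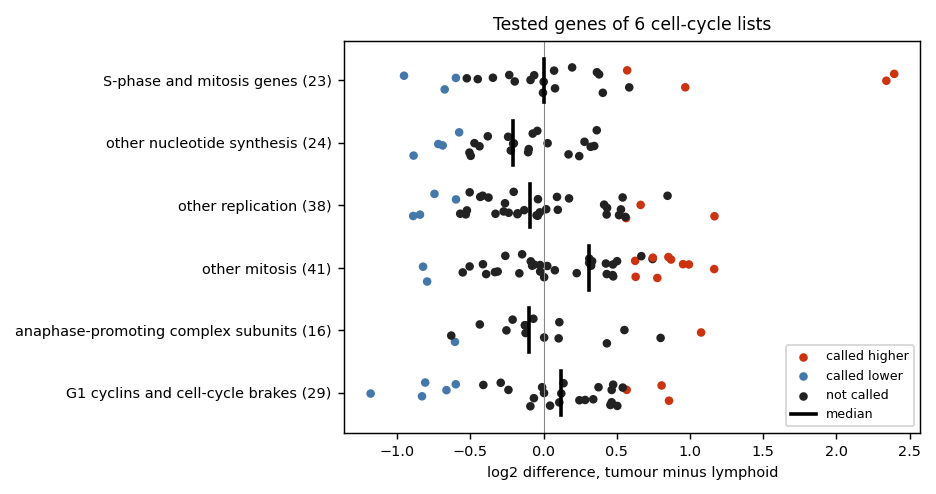
Log2 difference (tumour minus lymphoid) of the tested genes of 6 cell-cycle lists, with the number tested in brackets, each point a gene coloured by its limma call and the black bar the list's median. Tyms and Cdca8 are the 2 points at the far right, and the highest gene of the other 5 lists, Dbf4, is at 1.17.

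The direction of the moderate changes depended on the scaling. As deposited, the median of all tested genes was -0.96 and 5.75% of all calls were higher, against 58.1% after median-of-ratios scaling. With library totals these were 0.65 and 94.0%, with trimmed mean factors -0.38 and 19.1%. Among the 23 members there were 2 higher and 16 lower calls as deposited, where 4.74% and 77.8% of all tested genes were called. With library totals there were 9 and 1, where 44.6% and 2.85% of all tested genes were called. These counts follow the shift of all genes. Tyms and Cdca8 were called higher under each of these scalings. Lig1 turned to -0.35 as deposited and Mcm6 to 0.11 with library totals, both without a call, and Cenpa was at 0.07 as deposited, also without a call. Mcm5 and Prim1 stayed lower under each scaling, but with library totals Mcm5 was at -0.12 and not called.

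Markers of other cell types were measured beside these genes. Calls in the marker lists here and below stand beside 12.7% of all tested genes called higher and 9.17% lower. At an unadjusted limma p under 0.05 these shares were 19.8% and 17.2%. The 10 pan-T genes tested had 0 calls (0 also at an unadjusted limma p under 0.05), and their summed scaled FPKM was 864.8, 858.2 and 802.7. Of 8 tested Th1 genes 0 were higher and 1 lower (1 higher and 2 lower at an unadjusted p under 0.05). Melanocyte markers summed to 1.92, 2.40 and 6.12 over 14 genes, of which 6 lay above both lymphoid libraries and 2 below both. The 1 gene tested was higher at an unadjusted limma p under 0.05 but was not called (log2 difference 0.45). In the tumour library 6 of the 14 were listed at 0, Mlana among them, and Tyrp1 was at 0.192 on about 0.99 fragments. Pmel, which overlaps Cdk2 by 837 bases on the opposite strand, was at 0.798, 0.835 and 1.49.

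Myeloid markers summed to 2.56, 2.27 and 12.9 over 15 genes, with 4 at 0 in the tumour library. Of the 15 genes, 11 lay above both lymphoid libraries and 0 below both. Itgam, the 1 gene of these tested, was called higher, and the call ended with counting error added. B and plasma cell markers summed to 2.42, 2.27 and 10.2 over 9 genes, with 4 at 0 (Ms4a1, Cd79a, Cd79b and Pax5). Of the 9 genes, 5 lay above both lymphoid libraries and 2 below both. Cd22, the 1 gene of these tested, was called higher, also with counting error added. The CD8 T and NK list summed to 33.7, 31.1 and 36.0. Of its 3 tested genes 2 lay above both lymphoid libraries and 1 below both (log2 difference -0.66). At an unadjusted limma p under 0.05, 2 were higher and 1 lower. Cd8b1 was called higher, but not with counting error added. Itgam, Cd22 and Cd8b1 had a mean of 1 to 3 FPKM, a range in which 23.7% of all tested genes were called higher. Stromal and endothelial markers summed to 9.87, 9.18 and 11.3 and erythroid markers to 1.72, 1.51 and 2.35. Hba-a1 was called lower, but not with counting error added. The floor of the tumour library, an average of 0.259 scaled FPKM per receptor gene, may also enter these marker sums, and its part was not tested. The part of other cells in the rises of Tyms, Cdca8 and Cenpa was not tested.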

How the data were processed

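RNA was measured by sequencing. Per the labels' protocols, total RNA of 300000 cells (12 µl) was converted to strand-marking libraries depleted of ribosomal RNA and sequenced as 75 bp pairs. The submitters' processing notes list mm10, kallisto and DESeq2, with no version and no stated use. The deposited values were taken as FPKM, inferred from their form. The program behind them is not given in the sources used here.

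For 252 symbols with several rows the highest was kept. Median-of-ratios factors came from 9660 genes. The test was limma 3.58.1 (R 4.3.3), using its mean-variance trend and Benjamini-Hochberg adjustment over 9800 genes. It was also run on simulated data that gave all 3 libraries the same spread. That run cannot show how the test does with a shallower tumour library. Fragments were estimated from the commonest product of low values and transcript length (GENCODE release M21). From them the counting error of the tumour value was added in a further fit, for the 9714 genes with a length.

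The members and lists were chosen with earlier results of these data known. Named were all called members, the 2 most abundant of each role, Mki67, Top2a, Pcna and Cdk1, and, for each other list, up to 2 called genes per direction by size of change. Further names were chosen after their values were seen, including the remaining members. Other settings changed scaling, pseudocount (0.1 and 5), filter, rows and spread, or left out a lymphoid library. Trimmed mean factors were computed without weights, in place of the counts-based version foreseen. The labels give no batch.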

Additional observations from a re-analysis of the deposited data

How the results depend on the processing

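Tyms and Cdca8 were called higher in every setting tested in which they passed the filter, with log2 differences from 1.20 to 3.09 and from 1.39 to 3.02. Cdca8 was not tested with a minimum mean of 5 FPKM. The 4 higher member calls became 2 as deposited, 9 with library totals, 11 without a filter (46 tested), 1 with a minimum mean of 5 FPKM (7 tested) and 2 with counting error. Of all genes, 4.74%, 44.6%, 27.3%, 4.13% and 3.42% were called higher in the same order. The 3 lower calls became 16, 1, 1, 0 and 0 in that order, beside 77.8%, 2.85%, 2.19%, 3.74% and 0.206% of all genes, and 6 with trimmed mean factors, beside 33.5%. By limma at an unadjusted p under 0.05, 2 members were lower with a minimum mean of 5 FPKM and 0 with counting error. Of all genes, 16.5% and 5.54% were. Counts of members 2-fold higher (2) became 5 with library totals, 5 without a filter, 1 with a minimum mean of 5 FPKM and 3 with a pseudocount of 0.1. Without lymphoid library 1 the count was 3, and without lymphoid library 2 it was 2. Shares of all genes at 2-fold were computed only under the main scaling and filter. The count 2-fold lower (0) became 6 as deposited and 1 with a pseudocount of 0.1, and ranged from 0 to 1 with a lymphoid library left out, where Prim1 passed against lymphoid library 1 alone. The median of 0.00 became -0.80 as deposited, 0.66 with library totals, -0.082 with totals without small RNA rows and -0.37 with trimmed mean factors. Leaving out a lymphoid library gave medians from -0.06 to 0.06.

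As deposited, Rrm1 (-0.77), Pcna (-0.56), Lig1 (-0.35), E2f2 (-0.32) and Top2a (-0.40) turned from higher to lower. With library totals Mcm4 (0.18), Mcm6 (0.11), Fen1 (0.15), Cdk2 (0.25) and Mki67 (0.42) turned from lower to higher. With trimmed mean factors Rrm1 turned to -0.26. These turns follow from the shift of all genes by each scaling. The Mcm6 call was also lost with a pseudocount of 0.1, a minimum mean of 5 FPKM and summed rows (limma adjusted p = 0.054, 0.0827 and 0.0504). The Lig1 call was lost with totals without small RNA rows, trimmed mean factors and no mean-variance trend (0.0782, 0.273 and 0.0542). Without a filter the calls of Mcm5 and Prim1 were lost (0.0836 and 0.154), and with library totals that of Mcm5 (0.718). The Cenpa call was lost as deposited (0.657). With counting error all 5 of these calls were lost. No paired analysis was possible because there was 1 tumour library. Without a lymphoid library no test was left, since no residual degrees of freedom remained. Of the tested members 4 rested on fewer than 10 tumour fragments, which limits what their values show.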
